A study of Mus musculus with 7 samples.

Results

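Regions of open chromatin that were called in embryonic stem cells (ESCs) and first called on days 3 to 9 of reprogramming numbered 1309 of 104346 merged regions. They were chosen by their peaks: touching or overlapping peaks of all 7 libraries were merged, and a region was kept when it held an ESC peak and a peak on day 3, 6 or 9 but none on day 0, 1 or 2. Of all merged regions, 1.25% met this rule. The rule is a statement on called peaks, so the timing of a region is a description and was not tested. These regions are called late-opening ESC regions here.

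The starting cells were mouse embryonic fibroblasts (MEFs) from a cross of 2 mouse strains, one with the Col1a1tm1(tetO-Pou5f1,-Klf4,-Sox2,-Myc)Hoch allele on a B6;129S4 background and one with the Gt(ROSA)26Sortm1(rtTA*M2)Jae allele on a B6.Cg background. In such cells doxycycline switches on Oct4 (Pou5f1), Klf4, Sox2 and Myc (OKSM) from a cassette in the Col1a1 locus through the rtTA*M2 transactivator in the ROSA26 locus. The day 0 library was made from MEFs without doxycycline. The libraries of days 1, 2, 3, 6 and 9 were made from MEFs kept on doxycycline at 2 µg/mL for that time. The ESC library came from untreated ESCs, which the culture protocol names as the Bruce-4 line, although the genotype entered for it is that of the MEFs. ESCs were grown in medium with mLIF. By the labels reprogramming cells had MEF medium without it, while the methods of the study have them changed to ESC medium with mLIF at about day 8, so the day 9 cells may have shared the medium of ESCs. Line and medium therefore cannot be told apart from cell state in any comparison with ESCs. Each time-point had 1 library, so there are no replicates and no p-value is given. Libraries were made from all cells of a culture, so a peak that appears in few cells and one that is weakly open in many cannot be told apart.

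ATAC-seq marks DNA that is accessible to the Tn5 transposase, and its distal peaks are often enhancers while peaks at gene starts are promoters. In ESCs, Oct4 and Sox2 bind side by side to a composite DNA sequence at many enhancers of the pluripotency network, and Klf factors bind GC-rich sequences at enhancers and promoters. During reprogramming the fibroblast enhancers, many of which carry AP-1 sites, are closed, and the enhancers of the ESC are opened stepwise, some at once and others only in cells that have progressed.

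Sequences of a few late-opening ESC regions are given here, as read from the forward strand of the mm10 (GRCm38) reference genome. They are examples and do not show how frequent a motif was in the class. Of the genes on lists of pluripotency and related factors, Tfcp2l1, Tfap2c, Tcf7l1 and Smad7 had a region with a peak on each of days 3, 6 and 9. Those of the first 3 are shown because they were called on each late day, and that of Smad7 is described without its sequence. The second Tfap2c region and the nearer Klf5 region are shown because their genes are core to the network, and were chosen after their values were seen. Each run is up to 300 bases at the centre of the ESC peak, and capitals mark matches to the AP-1 letters TGANTCA or to the KLF letters GGGNGTGG on either strand.
Tfcp2l1, intron, chr1:118648021-118648320: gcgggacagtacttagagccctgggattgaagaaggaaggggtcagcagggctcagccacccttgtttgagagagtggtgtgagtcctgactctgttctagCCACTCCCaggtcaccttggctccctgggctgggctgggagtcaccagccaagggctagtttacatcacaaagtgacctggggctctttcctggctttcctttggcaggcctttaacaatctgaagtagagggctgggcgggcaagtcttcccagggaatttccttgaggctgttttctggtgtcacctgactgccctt
Tfap2c, upstream, chr2:172516353-172516611: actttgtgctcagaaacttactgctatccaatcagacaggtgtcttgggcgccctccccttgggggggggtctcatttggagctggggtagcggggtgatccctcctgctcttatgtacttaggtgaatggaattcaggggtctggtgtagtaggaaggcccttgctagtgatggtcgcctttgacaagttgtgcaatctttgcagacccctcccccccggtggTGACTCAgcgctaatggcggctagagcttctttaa
Tfap2c, downstream, chr2:172577264-172577563: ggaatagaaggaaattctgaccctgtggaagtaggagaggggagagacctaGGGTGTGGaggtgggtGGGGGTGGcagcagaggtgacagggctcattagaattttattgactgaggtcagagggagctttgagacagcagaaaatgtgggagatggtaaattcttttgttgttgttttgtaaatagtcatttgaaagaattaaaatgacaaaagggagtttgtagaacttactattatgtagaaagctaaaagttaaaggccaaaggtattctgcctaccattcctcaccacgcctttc
Tcf7l1, upstream, chr6:72795109-72795408: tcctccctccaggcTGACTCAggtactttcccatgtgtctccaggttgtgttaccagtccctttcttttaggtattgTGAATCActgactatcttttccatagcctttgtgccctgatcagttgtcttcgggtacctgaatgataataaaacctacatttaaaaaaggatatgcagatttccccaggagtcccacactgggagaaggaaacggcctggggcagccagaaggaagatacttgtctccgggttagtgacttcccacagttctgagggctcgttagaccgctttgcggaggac
Klf5, downstream, chr14:99324634-99324933: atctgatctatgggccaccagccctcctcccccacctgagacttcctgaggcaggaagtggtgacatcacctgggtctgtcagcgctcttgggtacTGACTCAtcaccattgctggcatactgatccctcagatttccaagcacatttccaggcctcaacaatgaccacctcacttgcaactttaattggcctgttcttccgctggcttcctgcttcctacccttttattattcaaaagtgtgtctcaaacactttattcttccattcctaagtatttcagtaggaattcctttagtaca
None of the 5 runs held the composite OCT-SOX letters TTGTNATGC. The Tcf7l1 run held 2 AP-1 matches, TGACTCA at base 15 and TGAATCA at base 78, and the downstream Tfap2c run held 2 KLF matches, GGGTGTGG at base 52 and GGGGGTGG at base 68, counted from the first base printed. The other 3 runs held 1 match each.

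The second set is shown because it carries the most frequent form of the OCT-SOX match among late-opening ESC regions, and was also chosen after the values were seen. These 4 regions had peaks on days 3, 6 and 9 and the widest ESC peaks of the 16 such regions with an OCT-SOX match. They are named by the nearest protein-coding gene, which for Adgrl3 starts 593252 bp away, and each run is the 300 bases at the centre of the merged region. Capitals mark OCT-SOX matches and, in the last run, 1 KLF match as well.
Ly96, intergenic, chr1:16824633-16824932: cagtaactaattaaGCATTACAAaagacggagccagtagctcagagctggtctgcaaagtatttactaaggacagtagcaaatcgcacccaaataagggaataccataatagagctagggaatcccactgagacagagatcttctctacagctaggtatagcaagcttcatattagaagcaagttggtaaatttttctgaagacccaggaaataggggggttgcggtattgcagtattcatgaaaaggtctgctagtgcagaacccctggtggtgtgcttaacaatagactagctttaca
Adgrl3, intergenic, chr5:82253759-82254058: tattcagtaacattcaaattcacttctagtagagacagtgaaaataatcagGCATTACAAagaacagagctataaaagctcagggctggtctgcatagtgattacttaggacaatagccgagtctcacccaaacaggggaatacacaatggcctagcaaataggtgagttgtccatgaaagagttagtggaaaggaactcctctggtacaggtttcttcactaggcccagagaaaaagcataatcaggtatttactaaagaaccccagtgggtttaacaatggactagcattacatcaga
1810037I17Rik, intron, chr3:122936847-122937146: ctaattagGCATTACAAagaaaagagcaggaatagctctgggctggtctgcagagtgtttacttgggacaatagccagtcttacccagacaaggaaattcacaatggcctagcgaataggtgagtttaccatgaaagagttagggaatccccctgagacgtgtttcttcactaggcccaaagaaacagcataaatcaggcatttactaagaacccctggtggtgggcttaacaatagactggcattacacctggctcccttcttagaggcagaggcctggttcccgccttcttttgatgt
Plbd1, intergenic, chr6:136668774-136669073: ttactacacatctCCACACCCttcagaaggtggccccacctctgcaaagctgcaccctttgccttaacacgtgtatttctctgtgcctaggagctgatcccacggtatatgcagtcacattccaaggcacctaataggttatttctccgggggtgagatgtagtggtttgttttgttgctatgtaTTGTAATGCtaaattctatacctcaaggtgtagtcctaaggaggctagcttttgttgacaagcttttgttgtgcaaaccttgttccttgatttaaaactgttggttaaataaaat
The first 3 runs resemble each other well beyond the marked letters, although they lie on different chromosomes, whereas the Plbd1 run does not belong with them. This likeness is measured further on.

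Most late-opening ESC regions were called on a single late day, and no day called them all. Peaks were called in 627 of them (47.9%) on day 3, in 771 (58.9%) on day 6 and in 594 (45.4%) on day 9. The first peak came on day 3 in 627 regions, on day 6 in 459 and on day 9 in 223. Peaks on 1 of the 3 days were found in 807 regions (61.7%), on 2 of them in 321 (24.5%) and on each of them in 181 (13.8%). The largest single pattern was a peak on day 6 alone, with 328 regions, and the smallest was a peak on days 3 and 9 without day 6, with 59. The labels and notes do not give the reads behind a peak, so a missing peak does not show closed chromatin.

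**Figure D1:**
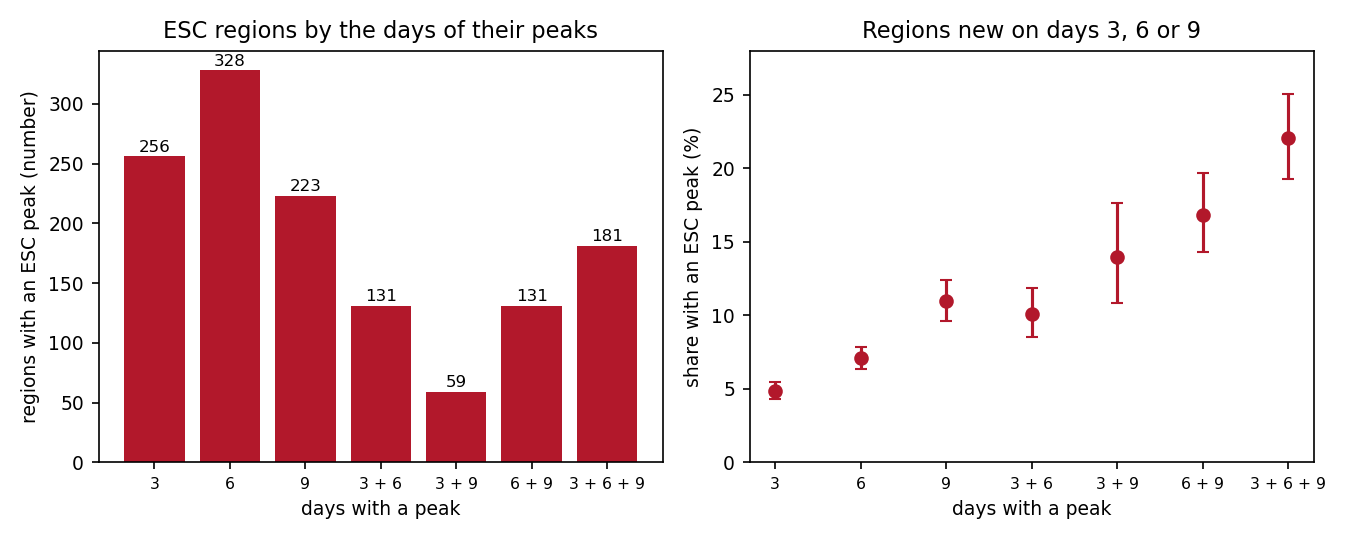
Left, number of late-opening ESC regions by the days on which they had a peak. Right, share of regions new on those days (no peak on days 0, 1 and 2) that also had an ESC peak, with exact 95% intervals. The share was lowest for a peak on day 3 alone (4.86%) and highest for peaks on days 3, 6 and 9 (22.0%).

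Regions that were new on days 3 to 9 numbered 15254, and 8.58% of them held an ESC peak. Seen from ESCs, 11489 regions had an ESC peak and none on days 0 to 2, and 11.4% of these had a peak on day 3, 6 or 9. The share with an ESC peak was 4.86% (exact 95% interval 4.30 to 5.48) of the 5264 regions called on day 3 alone, 7.07% (6.35 to 7.85) of the 4638 called on day 6 alone and 11% (9.63 to 12.4) of the 2035 called on day 9 alone. It was 22.0% (19.3 to 25) of the 821 regions called on days 3, 6 and 9. Intervals throughout cover counting error over regions, which are not replicates. Thus the share was higher for later and for repeated calls. The days and the ESC peak are the calls that the rule used, so this is a description and was not tested. The libraries of days 3, 6 and 9 had 48087, 44855 and 33007 peaks, and the part of this in the shares was not tested. Day 9 may also be the one late day in ESC medium, and the part of the medium in its share was not tested.

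Regions with an ESC peak were also called again more often on later days than new regions without one. Of the 627 late-opening ESC regions first called on day 3, 49.8% (45.8 to 53.7) had a peak on day 6 and 38.3% (34.5 to 42.2) on day 9. Of the 7177 regions first called on day 3 without an ESC peak, 25.2% (24.2 to 26.2) had one on day 6 and 14% (13.2 to 14.8) on day 9. Of regions first called on day 6, 28.5% (24.4 to 32.9) of the 459 with an ESC peak and 13% (12.1 to 14) of the 4956 without one had a peak on day 9. Wider first peaks were called again more often in both kinds of region. At a first-peak width from 200 to below 250 bp, the share called again on day 6 after day 3 was 37.4% with and 19.3% without an ESC peak. From 250 to below 350 bp it was 50% and 27.8%, and at 350 bp and more it was 70.9% and 48.2%. The share was therefore higher with an ESC peak within each of these ranges of width. These calls are again those that the rule used, so this is a description, and the part of signal or depth in it was not tested.

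The late peaks of these regions were narrow and their ESC peaks were of ordinary width. On days 3, 6 and 9 their peaks had median widths of 248, 247 and 253.5 bp, against 394, 391 and 389 bp for all peaks of these libraries. The smallest width in the lists was 200 bp. Narrow late peaks were not particular to these regions. Of new regions first called on day 3, 4752 of 7177 without an ESC peak had a first peak below 250 bp, against 310 of 627 with one. For those first called on day 6 it was 3579 of 4956 and 263 of 459. In ESCs their peaks had a median of 360 bp (quartiles 235 and 518) against 385 bp for all ESC peaks. The widest ESC peak per region had a median of 313 bp in regions called on day 6 alone, 445 bp in those called on day 9 alone and 441 bp in those called on all 3 late days. A late peak covered a median of 62.3% (quartiles 40.9 and 86.9) of the ESC peak, and the centres of both lay a median of 79.5 bp apart. In 2 regions no late peak overlapped an ESC peak, and the peaks only touched end to end.

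The rule has a sharp edge, since 1 called peak on days 0 to 2 removes a region. The nearest peak of those days lay a median of 6853 bp away, but 119 regions (9.09%) had one within 500 bp and the closest lay 2 bp away. Just outside the rule were 1170 ESC regions with a late peak and a peak on exactly 1 of days 0, 1 and 2, of which 476 had it on day 0, 436 on day 1 and 258 on day 2. The day 2 library had 33174 peaks against 61241 on day 0 and 45709 on day 1, and 27074 to 48087 were called in the libraries of days 3, 6 and 9 and of ESCs.

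Late-opening ESC regions were found at promoters about as often as all regions. Within 1000 bp of the transcription start site (TSS) of a protein-coding gene lay 207 of the 1307 regions with an annotated chromosome, or 15.8% (13.9 to 17.9), against 16.1% of all merged regions. The share was 12% (10.4 to 13.7) of the 1591 ESC regions that had a peak on day 1 and none on day 0, called day 1 ESC regions here, and 6.63% (6.16 to 7.14) of the 10180 ESC regions without a peak in any other library. The median distance to a TSS was 18567 bp for late-opening, 22735 bp for day 1 and 33853 bp for ESC-only regions. By position, 663 late-opening ESC regions (50.6%) had their centre between genes, 533 (40.7%) in introns, 78 in untranslated regions and 35 in coding sequence. Those first called on day 9 were near a TSS in 11.2% (7.39 to 16.1), and those first called on day 3 in 16.6% (13.8 to 19.8), with overlapping intervals.

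**Figure D2:**
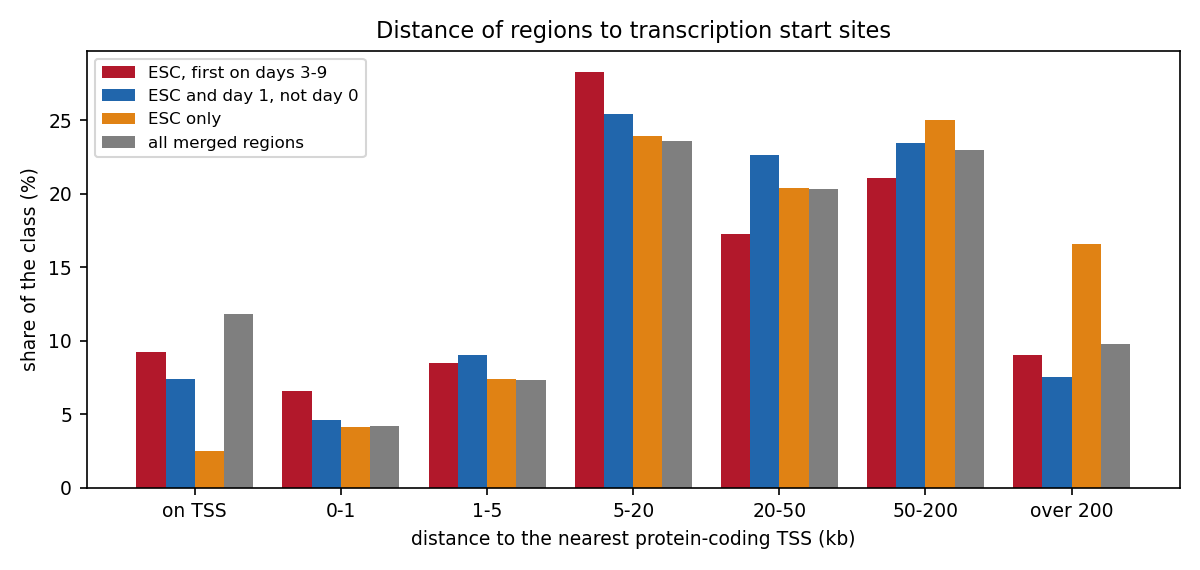
Share of each class of region by the distance of its regions to the nearest protein-coding TSS, in kb. Late-opening ESC regions spanned a TSS in 9.26%, against 2.52% of regions called in ESCs alone and 11.9% of all merged regions.

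Promoters were a small and distinct set. A TSS was spanned by 121 regions (9.26%), of which 17 had peaks on days 3, 6 and 9. The 5 of these with the widest ESC peaks were at Cecr2, a chromatin remodelling factor gene, Slc35f2, a solute carrier gene, Socs2, a feedback inhibitor of cytokine signalling, Casz1, a zinc finger transcription factor gene, and Pde5a, a cGMP phosphodiesterase gene. At Cecr2 (chr6:120665716-120666875) the peaks were 351, 242 and 359 bp wide on days 3, 6 and 9 and 683 bp in ESCs. At Socs2 (chr10:95415429-95416022) they were 278, 503, 254 and 585 bp, and at Casz1 (chr4:148900654-148901290) they were 363, 428, 619 and 578 bp. The GC content of the central 300 bp had a median of 64.0% within 1000 bp of a TSS and 49.3% farther away. The observed to expected ratio of CpG had medians of 0.638 and 0.199.

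In all, 13 short motifs were searched in the central 300 bp of each region, on both strands and with exact letters, where N is any base. A match is a description of the sequence and not a bound site. OCT-SOX (TTGTNATGC) and the octamer (ATGCNAAT) share the letters ATGC and can overlap in 1 match. The OCT-SOX letters were held by 64 of 1307 late-opening ESC regions, or 4.90% (3.79 to 6.21), against 1.46% of all merged regions, 4.85% (3.85 to 6.02) of day 1 ESC regions and 3.34% (3.00 to 3.70) of ESC-only regions. The octamer was in 11.7% (10.0 to 13.6), against 5.92% of all merged regions. Among day 1 ESC regions it was in 19.3% (17.4 to 21.3), and among ESC-only regions in 7.22% (6.72 to 7.74), so the late-opening regions lay between both classes with no overlap of intervals. KLF letters (GGGNGTGG) were in 23.7% (21.4 to 26.1), against 14.7% of all merged regions, 23.9% (21.8 to 26.1) of day 1 and 15.6% (14.9 to 16.4) of ESC-only regions. At least 1 of the 3 motifs or of the ESRRB/NR5A2 letters was in 502 late-opening ESC regions (38.4%) and in 22.6% of all merged regions. In windows under 50% marked as repetitive in the reference, late-opening ESC regions held KLF letters in 25% (22.5 to 27.7). ESC-only regions held them there in 21.2% (20.2 to 22.3), so the KLF shares of these classes were closer than over all windows.

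AP-1 letters (TGANTCA), the site of the Fos and Jun factors that are active in fibroblasts, were less frequent. They were in 9.49% (7.95 to 11.2) of late-opening ESC regions, against 22.3% of all merged regions, 16.0% (14.2 to 17.9) of day 1 ESC regions and 6.79% (6.31 to 7.30) of ESC-only regions. New regions of days 3 to 9 without an ESC peak held them in 13.4%. Within the late-opening ESC regions the share was 11.7% (9.27 to 14.5) for those first called on day 3, 6.54% (4.45 to 9.20) on day 6 and 9.42% (5.92 to 14) on day 9. Only the intervals of day 3 and day 6 did not overlap. In windows under 50% marked as repetitive in the reference, late-opening ESC regions held AP-1 letters in 9.19% (7.54 to 11.1). ESC-only regions held them there in 8.86% (8.13 to 9.62), and the intervals of these classes overlapped.

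**Figure D3:**
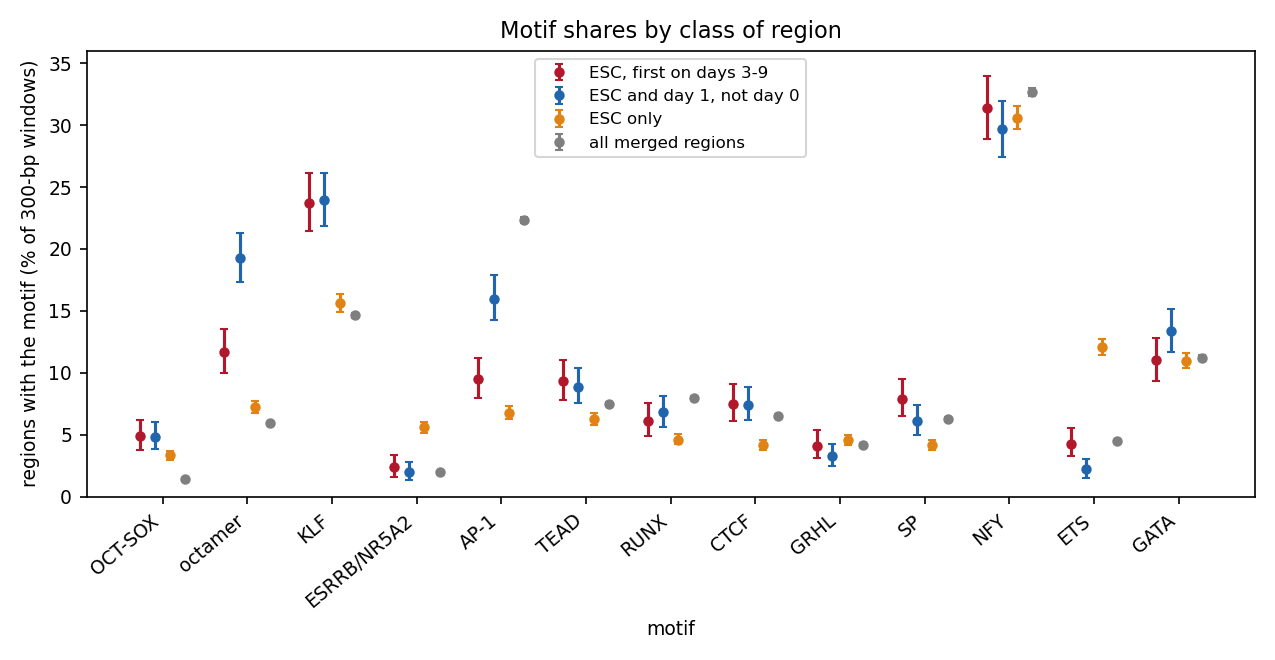
Share of regions with each of 13 motifs in the central 300 bp, for late-opening ESC regions, day 1 ESC regions, ESC-only regions and all merged regions, with exact 95% intervals. OCT-SOX and KLF shares of the late-opening and day 1 classes nearly coincide, the octamer and AP-1 separate them, and ESRRB/NR5A2 and ETS have their highest shares in ESC-only regions, where 84.8% of those with ETS have largely repetitive windows.

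Of the other 9 motifs, 6 had intervals that included the share of all merged regions. ESRRB/NR5A2 (CAAGGTCA), read by the nuclear receptors Esrrb and Nr5a2 of the naive network, was in 2.37% (1.62 to 3.35) of late-opening ESC regions against 1.98% of all, while ESC-only regions held it in 5.60% (5.16 to 6.07). ETS (CCGGAAG) was in 4.28% (3.25 to 5.53) against 4.46% of all and 12.1% (11.5 to 12.7) of ESC-only regions. Of the ESC-only regions with ETS letters, 84.8% had windows of which at least 50% is marked as repetitive in the reference. In the remaining windows ETS was in 4.32% (3.19 to 5.70) of late-opening, 3.26% (2.82 to 3.75) of ESC-only and 3.75% of all regions, so the higher ESC-only share was not seen there. TEAD (CATTCCA), the site of the effectors of Hippo signalling, was in 9.33% (7.81 to 11) of late-opening ESC regions against 7.48% of all merged regions. SP letters (GGGGCGGG) were in 7.88% (6.48 to 9.48) against 6.28%, and RUNX letters (TGTGGTT) in 6.12% (4.88 to 7.56) against 8% of all.

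RUNX (TGTGGTT), read by a factor family that is active in fibroblasts, was in 6.12% (4.88 to 7.56) of late-opening ESC regions against 8% of all merged regions. CTCF (CNAGGNGGC), the site of the factor at many loop anchors, was in 7.50% (6.13 to 9.06) against 6.53%. The grainyhead letters GRHL (AACNNGTT) were in 4.13% against 4.19%. The box CCAAT, read by NFY at many promoters, was in 31.4% of late-opening ESC regions against 32.7% of all merged regions, and the GATA letters AGATAA were in 11% against 11.2%. The GC box SP (GGGGCGGG) was in 7.88% (6.48 to 9.48) against 6.28%. SP letters were concentrated at promoters, with 25.6% (19.8 to 32.1) within 1000 bp of a TSS and 4.55% (3.39 to 5.95) elsewhere. OCT-SOX showed the opposite, with 1 of 207 regions near a TSS and 63 of 1100 (5.73%, 4.43 to 7.27) elsewhere.

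The OCT-SOX share rose with the number of late days on which a region was called. It was 3.35% (2.22 to 4.84) of 806 regions called on 1 of days 3, 6 and 9, 6.54% (4.09 to 9.83) of 321 called on 2 and 8.89% (5.17 to 14) of 180 called on all 3. The intervals of 1 and 3 days did not overlap, but without the copies of 1 repeated sequence, described further on, they did. New regions without an ESC peak had shares of 1.55% (1.33 to 1.79), 2.21% (1.63 to 2.92) and 2.34% (1.32 to 3.84). The octamer rose among regions without an ESC peak, from 6.88% on 1 day to 13% on 3 days, and was 11.8%, 11.2% and 12.2% in late-opening ESC regions. On all 3 days the octamer and KLF shares of the regions with and without an ESC peak were alike in value, 12.2% and 13% for the octamer and 20.0% in each for KLF.

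**Figure D4:**
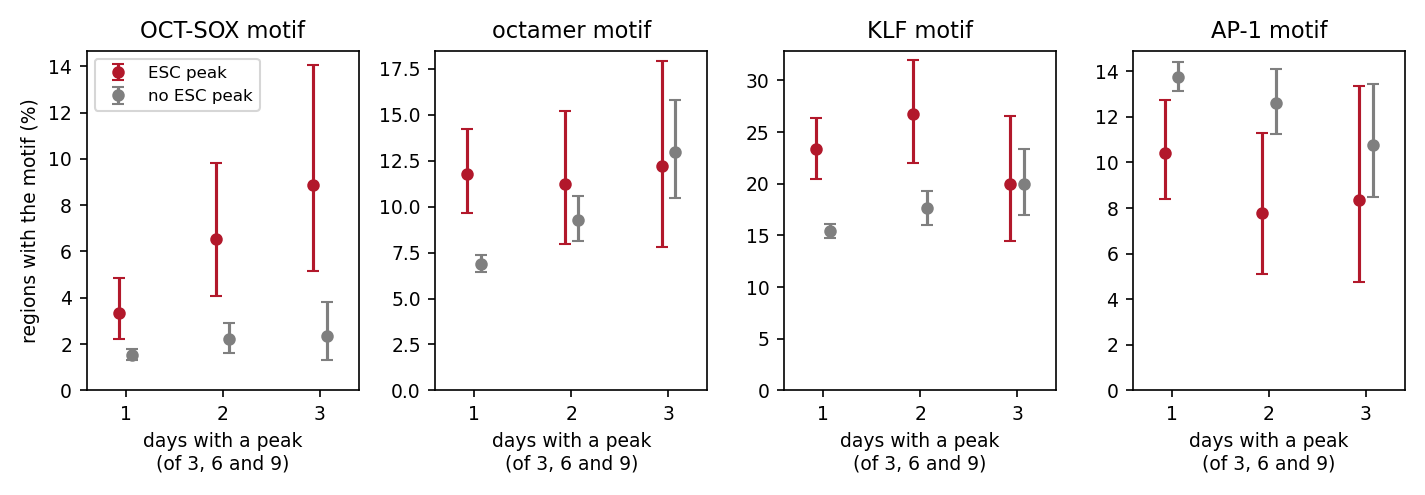
Share of regions with the OCT-SOX, octamer, KLF or AP-1 motif by the number of days 3, 6 and 9 with a peak, for regions with an ESC peak (late-opening ESC regions) and for new regions without one, with exact 95% intervals. OCT-SOX is the motif whose share differs most between both kinds on 3 days, at 8.89% and 2.34%. Without the copies of 1 repeated sequence the first share is 4.65% (2.03 to 8.96), and its interval overlaps that of the second (1.32 to 3.84).

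Many OCT-SOX matches came from copies of 1 repeated sequence. In 31 of the 64 late-opening ESC regions with a match (48.4%) the match lay in letters that the reference marks as repetitive (soft-masked), against 23.0% of the matches in all merged regions. To measure likeness, 25 bases on each side of the match were compared between all pairs, without gaps and with the motif left out. Linking pairs with an identity of at least 70% gave a group of 27 regions on 15 chromosomes, of which 24 had a soft-masked match. The median identity was 70% within this group and 28% over all pairs. The Ly96, Adgrl3 and 1810037I17Rik sequences above belong to it and the Plbd1 sequence does not. Of the group, 13 regions were called on 1 late day, 6 on 2 and 8 on all 3. No repeat annotation was at hand, so the family is not named.

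The same repeated sequence was also found in regions called in ESCs alone, which are a larger class. Over all merged regions with an OCT-SOX match, the same linking joined 269 regions, of which 254 (94.4%) had an ESC peak, 199 (74.0%) were ESC-only and 27 (10.0%) were late-opening ESC regions. Outside these groups the OCT-SOX share was 2.89% (2.04 to 3.96) of late-opening ESC regions and 1.21% (1.14 to 1.28) of all merged regions. Outside the group the shares on 1, 2 and 3 late days were 1.77% (0.968 to 2.94), 4.76% (2.69 to 7.73) and 4.65% (2.03 to 8.96), whose intervals overlapped. The interval for 3 days also overlapped that of new regions without an ESC peak on 3 days, which had 2.34% (1.32 to 3.84). In windows with under 50% soft-masked letters OCT-SOX was in 3.12% (2.17 to 4.34) of late-opening and 1.25% (1.18 to 1.33) of all regions. The KLF share there was 25% against 14.8%, the octamer share 10.3% against 5.60% and the AP-1 share 9.19% against 23.2%. The OCT-SOX value of the late-opening ESC regions in these windows thus lay below the interval of its value over all windows, and the KLF, octamer and AP-1 values lay within theirs. In the same windows OCT-SOX was in 3.99% (3.02 to 5.17) of day 1 and 2.14% (1.79 to 2.55) of ESC-only regions. Both intervals overlapped that of the late-opening ESC regions.

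Of the OCT-SOX matches, the form TTGTAATGC made up 37 of 64 (57.8%) in late-opening ESC regions, 11 of 16 (68.8%) in those called on all 3 late days and 39.1% of 1526 in all merged regions, while TTGTTATGC made up 15.6% and 24.3% in late-opening and all regions. Soft-masked letters filled at least 50% of the window in 16.8% of late-opening ESC regions, against 13.3% of day 1, 43.5% of ESC-only and 9.18% of all merged regions. By first day the share was 12.8% for day 3, 17.6% for day 6 and 26.0% for day 9. Hence the share was higher for regions first called later, and for each first day it was below that of ESC-only regions. Reads from repeats map less surely to 1 place, and how the mapping treated them is not given in the sources used here. The part of mapping in these shares was not tested.

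Of 21924 protein-coding genes, 1197 (5.46%) were the nearest gene of at least 1 late-opening ESC region. Nearest means the closest annotated TSS, and no link to expression was measured. The 9 lists of genes held 165 genes, and 31 of them (18.8%) had such a region. Listed genes also had more regions of any kind around them, so the share of regions is given too. Near the 22 naive and core pluripotency factors, 10 of 263 regions (3.8%, 1.84 to 6.88) were late-opening ESC regions, and near the 25 signalling genes 10 of 370 (2.70%, 1.30 to 4.91). Near the 25 fibroblast and mesenchymal genes they were 4 of 516 (0.775%, 0.212 to 1.97). The share near all protein-coding genes was 1.25% of 104250 regions, which lies below both first intervals. Day 1 ESC regions made up 3.04% and 2.70% of the regions near these lists, against 1.52% near all genes. The 10 signalling regions lay at 6 genes, so they are not independent. Because the lists were chosen with earlier results of these data known, the higher shares are a description and were not tested. ESC-only regions made up 20.9% of the regions near the naive and core factors against 9.74% near all genes.

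The naive and core pluripotency factors were the list with the most genes, 8 of 22. Tfcp2l1, a transcription factor of the naive network that acts downstream of LIF, had a region in an intron, 19917 bp from the start (chr1:118647863-118648490). On days 3, 6 and 9 and in ESCs its peaks were 265, 529, 573 and 616 bp wide, so each library had a wider call than the one before. Tfap2c, which encodes the factor AP-2 gamma of ESCs, trophoblast and germ cells, had 2 regions on opposite sides of the gene. The upstream one, at 32477 bp (chr2:172516353-172517116), had peaks of 401, 561 and 480 bp on days 3, 6 and 9 and 2 ESC peaks of 259 and 218 bp. The downstream one, 26042 bp from a start (chr2:172577033-172577795), had peaks of 307 and 203 bp on days 6 and 9 and one of 763 bp in ESCs. Peaks lying between 709 and 1264 bp downstream of the first Tfap2c start were called on days 0, 2, 6 and 9 but not in ESCs.

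Klf5, a Klf factor that can act in place of Klf4 in self-renewal, also had 2 regions, both downstream. The nearer one (chr14:99324483-99325084), 25329 bp from a start, had peaks of 325 bp on day 3 and 200 bp on day 6, none on day 9 and one of 602 bp in ESCs. The farther one (chr14:99355461-99355937) had a day 6 peak of 200 bp and an ESC peak of 477 bp. The Klf5 start was called in each of the 7 libraries, with widths of 587 to 823 bp apart from a second day 9 peak of 200 bp. Between both regions lay an ESC-only peak of 1027 bp. The promoter of this gene was thus called in MEFs, so by the rule it could not be a late-opening ESC region. Distal peaks were also called earlier, at 5765 to 6130 and 54369 to 54612 bp downstream of the gene start on day 1. On day 2 one was called at 54682 to 54882 bp.

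**Figure D5:**
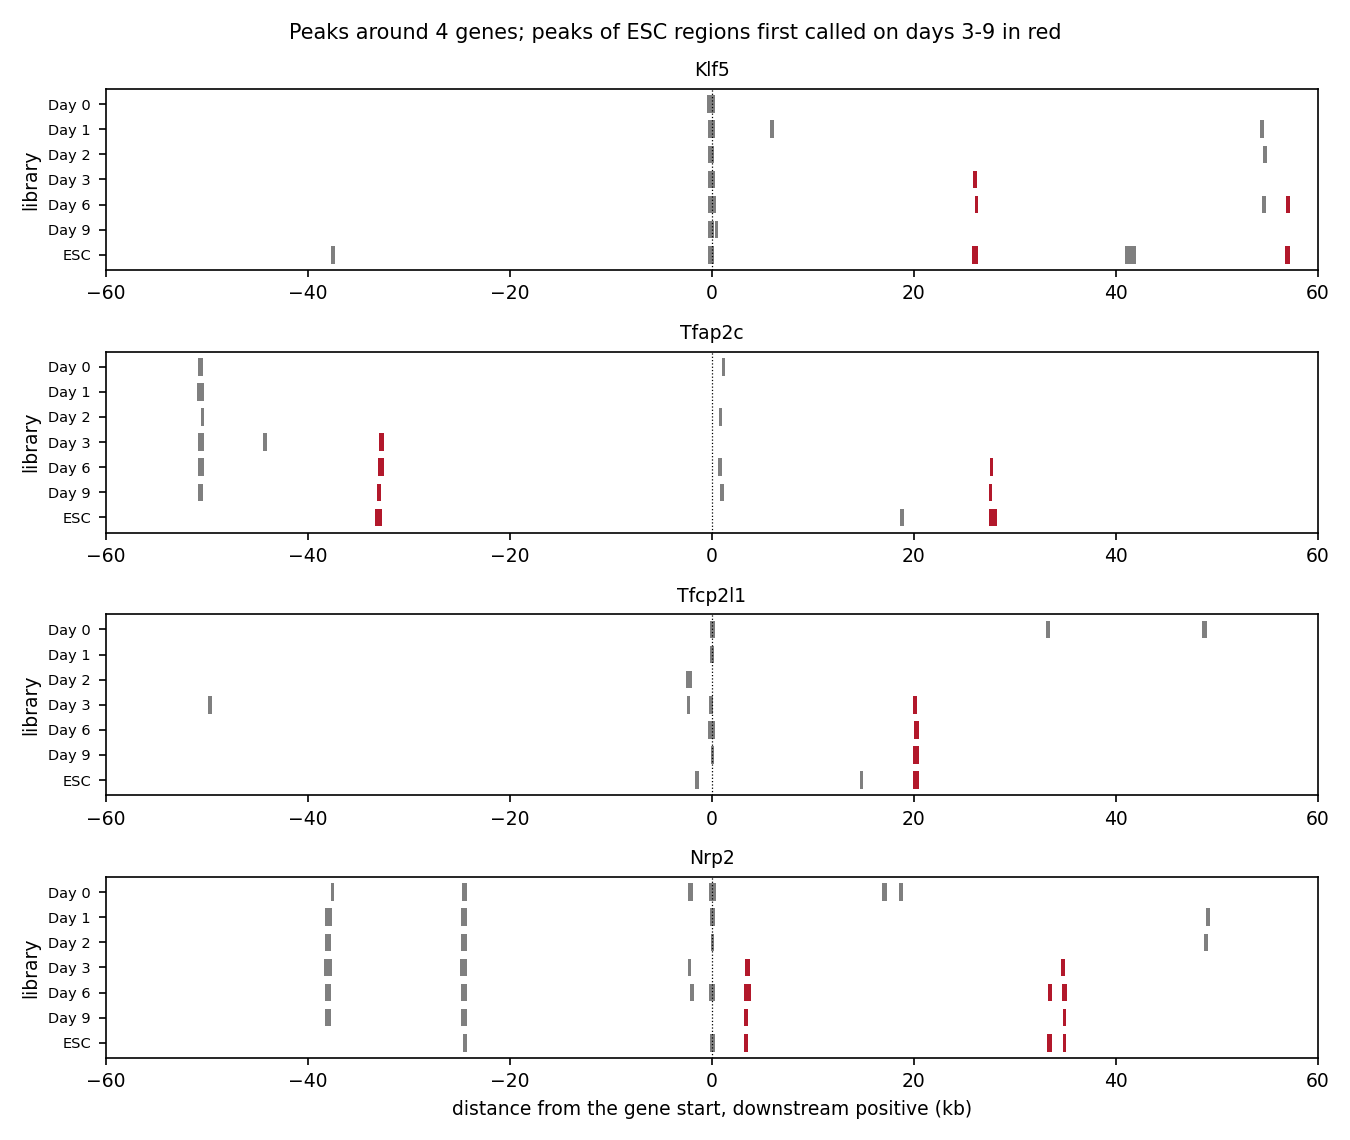
Peaks of each library within 60 kb of the starts of Klf5, Tfap2c, Tfcp2l1 and Nrp2, by distance from the gene start with downstream positive. Each bar is a peak, drawn at least 0.35 kb wide, and red bars are peaks of late-opening ESC regions. At Klf5, Tfcp2l1 and Nrp2 the gene start was called on day 0, and red bars are limited to day 3 and later by the way the regions were chosen.

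The endogenous loci of 2 of the induced factors had narrow calls on day 3 only. At Pou5f1 the region (chr17:35509524-35509862) had a day 3 peak of 230 bp and an ESC peak of 200 bp and lay 3506 bp downstream of the gene start, centred in an intron. It overlapped coding sequence by 15 bp. The cassette carries Pou5f1, and reads from its coding sequence cannot be told apart from those of the endogenous exons. At Sox2 the region (chr3:34575978-34576346), 74059 bp upstream, had a day 3 peak of 320 bp and an ESC peak of 257 bp. Nr5a2 and Sall1, also on this list, were outside the limit of 6 named genes per list.

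Nanog was not the nearest protein-coding gene of any late-opening ESC region. This does not show that none lay around it, since a region is assigned to 1 gene only. Among the germline genes, Prdm1, which encodes the germ cell specifier Blimp1, had peaks of 238 bp on day 6 and 591 bp in ESCs. Formative and primed genes had 1 of 14, Zic2, with peaks of 200 bp on day 6 and 210 bp in ESCs. At Prdm1 and Zic2 the late call was thus on day 6 alone.

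Of the signalling genes, 6 of 25 had a region. Smad7, an inhibitor of TGF-beta and BMP signals, had 3 regions, and Spry2, a feedback inhibitor of FGF signals, also had 3. Of the Smad7 regions, the one called on days 3, 6 and 9 lay 71744 bp downstream of the nearest Smad7 start. Its centre was in an intron of a protein-coding gene, which need not be Smad7. This region had peaks of 416, 457 and 205 bp and an ESC peak of 229 bp. Of the Spry2 regions, 2 lay close together at chr14:105859237-105859614 and chr14:105860786-105861213, 37205 and 35606 bp downstream of the start, with day 6 peaks of 200 and 251 bp. Tcf7l1, a repressor of WNT targets, had a region 5666 bp upstream with peaks of 234, 200 and 358 bp on days 3, 6 and 9 and 355 bp in ESCs. Id2, an inhibitor of basic helix-loop-helix factors, had peaks of 297 bp on day 6 and 448 bp on day 9. The receptor gene Lifr and the ligand gene Wnt3 each had a day 3 peak alone, of 212 and 209 bp. At Lifr the region spanned a TSS.

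The remaining lists had 1 to 3 genes each, and for each of them the interval of the share of nearby regions included the 1.25% of all genes. For epithelial genes it was 2.52% (0.523 to 7.19), for chromatin genes 1.68% (0.347 to 4.82) and for surface markers 1.80% (0.219 to 6.36). Among epithelial genes 3 of 25 had a region: Ehf, an ETS factor, Grhl2, a grainyhead factor, and St14, a membrane protease. Ehf was called on days 6 and 9 with 319 and 200 bp, Grhl2 on day 9 with 379 bp and St14 on day 6 with 200 bp. Among chromatin genes 3 of 20 had one: Jarid2 and Phc1, of the Polycomb complexes, were called on days 6 and 9 with 405 and 468 bp and with 438 and 341 bp, and the remodeller gene Chd1 on day 3 with 207 bp. Of the 9 regulators that the study calls the 9TR network, Gli2 had a day 3 peak of 200 bp and Tead4 a day 6 peak of 266 bp. The list comes from earlier work on reprogramming that the study builds on. Of 12 surface marker genes, Alpl was called on day 6 with 296 bp and Fut9, the enzyme gene behind SSEA-1, on day 9 with 331 bp. Of 25 fibroblast genes, Col3a1, Fn1 and Tead1 had 4 regions, none of them with a day 9 peak.

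Most genes had a single late-opening ESC region, namely 1103 of the 1197, while 78 had 2 and 16 had 3. Of these 16, Nrp2, a semaphorin and VEGF co-receptor gene, had 2 regions called on all 3 late days. Its region 2809 bp into the gene (chr1:62706511-62707097) had peaks of 532, 287 and 302 bp on days 3, 6 and 9 and 246 bp in ESCs. Its region at 34198 bp (chr1:62737900-62738458) had peaks of 336, 513, 354 and 366 bp, and the third region, between them, had peaks of 202 bp on day 6 and 423 bp in ESCs. Mbnl2, a splicing regulator gene, was the one place where 3 late-opening ESC regions lay within 25000 bp of each other, over 18743 bp (chr14:120355326-120374068). Its 3 regions were called on days 3, 6 and 9, on day 9, and on days 3 and 9, with ESC peaks of 340, 468 and 421 bp. Rbfox1 and Fry each had 1 region called on all 3 late days, with peaks of 694, 851 and 489 bp and of 527, 568 and 515 bp. In all, 1232 regions had no other within 25000 bp, and 37 pairs and the Mbnl2 triple made up the rest.

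The widest ESC peaks mostly belonged to regions with a narrow late call on day 6 or 9. The nearest genes of the 10 widest were Tmem47, Jam2, Pid1, Sox21, Fgd4, Dnajc5b, 4930578C19Rik, Smarca1, Gpr107 and Amotl2, with ESC peaks of 890 to 1427 bp. Some lay far from these genes, with 455448 bp to the TSS for Smarca1, 104021 bp for Tmem47 and 77181 bp for 4930578C19Rik. None of the 10 had a day 3 peak. In the Tmem47 region (chrX:80965258-80966684) the day 9 peak was 200 bp and the ESC peak 1427 bp. In the region of Jam2, a junctional adhesion molecule gene, they were 200 and 1174 bp, and in that of Smarca1, a chromatin remodeller gene, 211 and 923 bp. Sox21, a Sox factor gene of the neural lineage, was the exception, with peaks of 759 and 416 bp on days 6 and 9 and one of 1021 bp in ESCs over its TSS. The X chromosome held 2.75% of late-opening ESC regions, 2.35% of all merged regions and 3.78% of ESC-only regions.

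The labels of the libraries were compared with peaks near marker genes fixed for each cell type. Near 8 fibroblast genes, 39 peaks were called on day 0, 20 to 26 on days 1 to 9 and 8 in ESCs, with none in ESCs at Col1a1, Col1a2, Prrx1 and Postn. Thy1 had 5 on day 0 and 1 in ESCs, Twist1 had 3 and 2, and Twist2 had 6 and 2. Snai2 went the other way, with 1 on day 0 and 3 in ESCs. Near 6 ESC genes (Nanog, Esrrb, Zfp42, Sox2, Tfcp2l1 and Prdm14) 14 peaks were called on day 0 and 13 in ESCs, and Sox2 had none in ESCs within 50 kb. From day 0 to ESCs, Nanog went from 4 to 2 and Sox2 from 1 to 0, while Esrrb went from 4 to 5 and Zfp42 from 0 to 1. Tfcp2l1 had 3 and Prdm14 had 2 in both libraries. The day 0 library had 61241 peaks in all and the ESC library 27074, so relative to all peaks ESCs had fewer than day 0 near the fibroblast genes and more near the ESC genes.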

How the data were processed

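The authors made the peak lists from paired-end reads by trimming (Trimmomatic), alignment to mm10 (Bowtie2) and removal of duplicates (Picard). All samples were then reduced to 1 depth, which is not given in the sources used here, and MACS2 called peaks in each library alone with 0.05 as its q-value limit. The deposited lists hold peak positions without a score, signal or count, so depth is unknown and a missing peak does not show closed chromatin. Peaks were merged with code that was tested on simulated data and checked against bedtools 2.31.1, and 2 late-opening ESC regions on unplaced sequences had no annotation or sequence. Genes were those of GENCODE M21 and sequences those of RefSeq GRCm38.p6, read with pysam 0.24.0. Shares have exact (Clopper-Pearson) 95% intervals from scipy 1.17.1, covering only the error of counting. A test was not possible, since no time-point was repeated. The regions, lists and motifs were chosen with earlier results of these data known. Named were listed genes with a region (at most 6 per list, those with the most regions first), the 10 genes with the most regions, the 10 widest ESC peaks and the 5 widest ESC peaks at a TSS among regions called on all 3 late days. A few results that fall under this rule are not reported here. The 16 genes with 3 regions tied, and a few of them are described. Alternatives were peak width, merging, overlap, libraries left out, gene set, TSS distance and motif window, and, added after the data were seen, regions called on at least 2 late days, day 2 left out for the sequence values, soft-masked windows left out and the repeated sequence left out.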

Additional observations from a re-analysis of the deposited data

How the results depend on the processing

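Of 71 values recomputed under an alternative, 49 stayed within 1.5 times a count or within the interval of a share or median, 22 moved and none reversed. With peaks at least 300 bp wide, 713 late-opening ESC regions were left, first called on day 3, 6 or 9 in 363, 243 and 107, with OCT-SOX in 6.33% and 17 listed genes. With the 27074 widest peaks of each library there were 1359 regions, against 1309, and 379 were first called on day 9, against 223. Asking that late and ESC peaks share 50% of each other left 772 regions. With the starts of all annotated genes, 20.7% lay within 1000 bp at a median distance of 9312 bp, and 20.5% lay within 2500 bp of a protein-coding TSS. A 200 bp window gave 3.6% for OCT-SOX, 9.41% for the octamer, 18.3% for KLF and 6.12% for AP-1. Away from a TSS the GC median was 49.3% and the CpG ratio 0.199. Regions called on all 3 late days had a median ESC peak of 441 bp. Among values added later, regions called on at least 2 late days gave 7.39% for OCT-SOX and 49.7% GC, windows under 50% soft-masked gave 3.12% for OCT-SOX, and leaving out the repeated sequence gave 2.89%. Leaving out the day 2 library gave 1567 regions, and leaving out day 9 gave 1086. Shorter windows hold fewer letters by construction. Fewer peaks need not give fewer regions, since the rule also asks for missing peaks on days 0 to 2. The cause of the other moves was not tested. No paired analysis was possible because libraries were not repeated. Unknown depth limits each statement on a missing peak.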
